A study of Mus musculus with 6 samples.

Results

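*Postn*, which encodes the secreted matricellular protein periostin, was examined together with 9 genes of related matricellular or matrix-binding proteins in mouse chondrocytes that carry or lack *Postn*. The 10 genes were listed by name and not by a measured threshold, with earlier results of these data known: *Postn*, *Tgfbi*, *Thbs1*, *Thbs2*, *Thbs3*, *Tnc*, *Sparc*, *Ctgf* (also written *Ccn2*), *Cyr61* (also written *Ccn1*) and *Fn1*. All 10 were found among the 41388 genes counted in each sample, and all 10 were among the 14533 genes that were above 1 CPM (counts scaled to a common library size) in at least 2 samples and were therefore tested. The question addressed was whether relatives of *Postn* rise when *Postn* is lost.

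RNA-seq was performed on joint chondrocytes of the femoral head cartilage of male mice aged 21 days, 3 *Postn*-/- and 3 wild-type (*wt*), after 2 days in culture. The strain was B6/129 in both genotypes, neither received a treatment, and the study's methods describe the *wt* animals as littermates. The *Postn*-/- mice carry a germline deletion in every tissue, so effects of the whole animal on these cells are included. In this allele internal exons are replaced by a selection cassette, and reads of the exons that remain are still counted for the gene. Counts per sample summed to between 20587640 and 26572260, and 3 counts corresponded to 0.113 to 0.146 CPM. The 10 chondrocyte markers were all detected and summed to 22239 to 35995 normalized CPM per sample, while endothelial markers summed to 8.14 to 14.3 CPM, blood and macrophage markers to 18.9 to 49.7 CPM and osteoblast and osteoclast markers to 1048 to 2784 CPM. Of these, *Cdh5*, *Hbb-bs* and *Hba-a1* were at 0 in at least 1 sample, and *Pecam1*, *Ptprc*, *Cd68* and *Lyz2* had reads in all 6. In these bulk samples, fewer cells of a type and less RNA per cell cannot be told apart.

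Matricellular proteins are secreted into the extracellular matrix, where they bind collagens, growth factors and integrins and tune how cells attach, migrate and respond, rather than bearing load themselves. Periostin and the product of *Tgfbi* are built from fasciclin domains, are induced by TGF-β and bind collagen. Periostin also binds tenascin-C, the product of *Tnc*, and fibronectin, the product of *Fn1*. *Ctgf* and *Cyr61* encode CCN proteins and are widely used as readouts of YAP and SRF activity, and *Tgfbi*, *Tnc* and *Cyr61* are responsive to TGF-β or to mechanical load in many connective tissues.

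The bases just before the start of transcription are shown for *Postn*, since it is the targeted gene, and for *Tgfbi*, *Tnc* and *Cyr61*. These 3 and *Fn1* were each highest in replicate 2 of both genotypes (described further on), and no window was available for *Fn1*. The sequences are from RefSeq on GRCm38.p6, are written 5′ to 3′ on the strand of the gene without exon bases, and carry in capitals each match to one of 5 motifs searched on both strands. The motifs were the TATA box TATAAA, the GC box GGGCGG, the TEAD motif GGAATG, the AP-1 motif TGANTCA and the CArG box bound by SRF.
*Postn* (chr3:54360857-54361106, plus strand): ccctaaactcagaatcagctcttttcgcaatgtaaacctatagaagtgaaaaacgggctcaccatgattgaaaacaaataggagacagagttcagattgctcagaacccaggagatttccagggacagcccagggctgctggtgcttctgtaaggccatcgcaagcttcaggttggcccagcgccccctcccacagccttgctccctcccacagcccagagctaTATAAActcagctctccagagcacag
*Tgfbi* (chr13:56609336-56609522, plus strand): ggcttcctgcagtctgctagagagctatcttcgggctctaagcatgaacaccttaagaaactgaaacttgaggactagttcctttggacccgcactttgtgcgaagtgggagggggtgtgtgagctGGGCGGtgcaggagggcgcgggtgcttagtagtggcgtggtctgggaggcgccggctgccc
*Tnc* (chr4:64047016-64047265, minus strand): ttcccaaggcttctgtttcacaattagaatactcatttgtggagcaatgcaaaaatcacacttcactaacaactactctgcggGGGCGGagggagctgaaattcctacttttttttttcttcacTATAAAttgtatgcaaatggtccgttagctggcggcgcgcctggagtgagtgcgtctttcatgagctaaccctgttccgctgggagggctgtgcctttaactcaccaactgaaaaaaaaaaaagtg
*Cyr61* (chr3:145649986-145650235, minus strand): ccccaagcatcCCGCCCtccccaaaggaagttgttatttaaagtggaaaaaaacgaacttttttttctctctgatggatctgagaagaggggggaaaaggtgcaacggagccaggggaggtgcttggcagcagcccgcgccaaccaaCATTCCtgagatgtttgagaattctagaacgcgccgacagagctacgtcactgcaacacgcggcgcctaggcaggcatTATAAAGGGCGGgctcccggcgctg

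Counted from the end of each window, TATAAA began at −26 in *Postn*, at −25 in *Cyr61* and at −126 in *Tnc*, and it was found in 12.4% of 32851 mouse promoter windows. GGGCGG began at −61 in *Tgfbi*, at −167 in *Tnc* and at −239 and −19 in *Cyr61*, and 32.7% of all windows held it. GGAATG, present in 12.6% of all windows, was matched once, at −103 in *Cyr61*, where it is printed as its reverse complement CATTCC. The AP-1 motif TGANTCA (6.75% of all windows) and the CArG box (1.47%) were not matched in these 4 windows. *Tnc* and *Cyr61* thus each held TATAAA and GGGCGG, while the *Postn* and *Tgfbi* windows held 1 of the 5 motifs each. After exon bases were left out, the *Tgfbi* window had 187 bases, against 250 in the other windows shown and in those behind the shares. A match is a description of the letters and says nothing about binding. Of the genes not shown, *Thbs2* held TATAAA at −126, *Thbs3* held GGGCGG at −21, and the 7 bases of the *Sparc* window held no match. For *Thbs1*, *Ctgf* and *Fn1* no window was available.

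*Postn* was the least abundant of the 10 genes per kilobase of exon. In RPKM, which is CPM per kilobase of exon length, *Postn* was at 0.886 ± 0.329 over all 6 samples (mean ± SD), which placed it at the 22.9th percentile of the tested genes. The collagen-binding glycoprotein gene *Sparc* was highest at 7491 ± 726 RPKM, followed by *Fn1* at 1031 ± 214. *Thbs1* was at 724 ± 243 RPKM, *Ctgf* at 472 ± 85.4, *Cyr61* at 230 ± 112 and *Tgfbi* at 97.5 ± 49.4. A group of lower genes was formed by *Thbs2* at 19.6 ± 8.13, *Tnc* at 19.0 ± 16.7 and *Thbs3* at 16.1 ± 2.58 RPKM. The samples of *Sparc* and *Fn1* did not overlap, nor did those of *Tgfbi* and *Thbs2* or of *Thbs3* and *Postn*, whereas every other pair of neighbours in this order overlapped. In *wt* cells *Sparc* was 6390 times and *Thbs3* 14.9 times as abundant per kilobase as *Postn*. The order was the same with TMM-normalized CPM per kilobase. The exon length of *Postn* in the counts is 7833 bases, the union of its isoforms, so its RPKM is set by that length too.

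**Figure D1:**
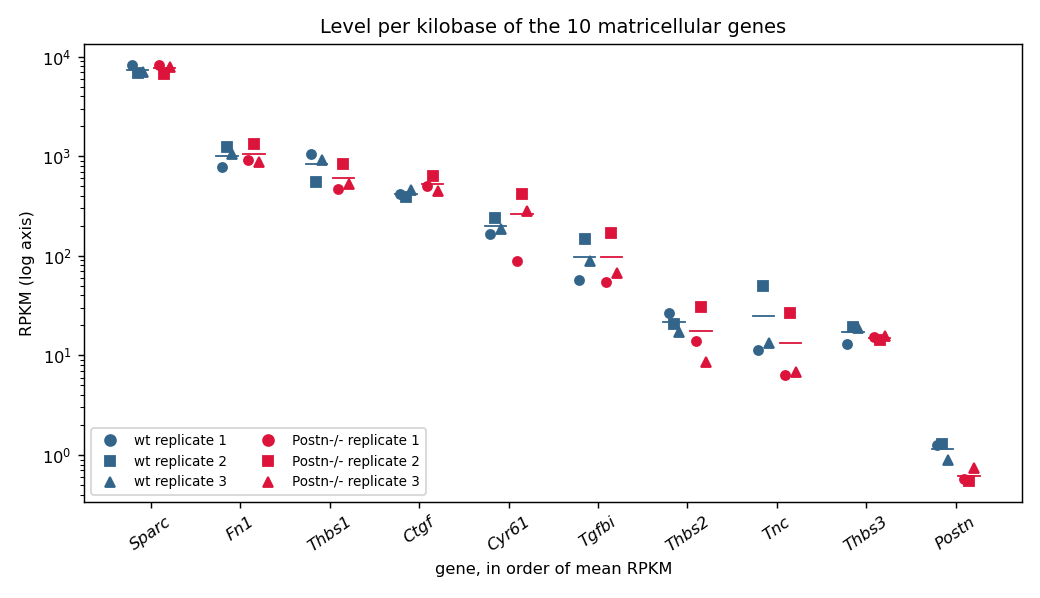
Deposited RPKM (log axis) of the 10 matricellular genes in order of their mean, with 1 symbol per sample, blue for *wt* and red for *Postn*-/-, and a bar at each genotype's mean. *Sparc* lies between 6759 and 8272 RPKM in every sample and *Postn* between 0.551 and 1.30.

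The 3 *Postn*-/- samples held less *Postn* than any *wt* sample, yet its reads did not disappear. The gene spans 54361109 to 54391034 of chromosome 3 (GRCm38, plus strand). Its reads numbered 116, 105 and 119 in the *Postn*-/- replicates, against 263, 228 and 144 in the *wt* replicates, both in the order 1, 2 and 3. After TMM normalization, which scales each sample for library size and composition, these were 4.66, 4.27 and 5.67 CPM in *Postn*-/- and 10.1, 10.3 and 6.90 CPM in *wt*. The closest samples were *Postn*-/- replicate 3 and *wt* replicate 3, and counts per gene do not separate the deleted exons from those that remain. The fold change was 0.534 (95% interval 0.374 to 0.761), which is a log2 fold change, *Postn*-/- over *wt*, of −0.91 (standard error 0.22, edgeR quasi-likelihood unadjusted p = 0.00362, Benjamini-Hochberg adjusted p = 0.717 over all tested genes). The difference therefore did not pass at an adjusted p of 0.05. Over 15 alternatives the log2 fold change was between −1.07 and −0.70 and the adjusted p between 0.191 and 0.983.

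**Figure D2:**
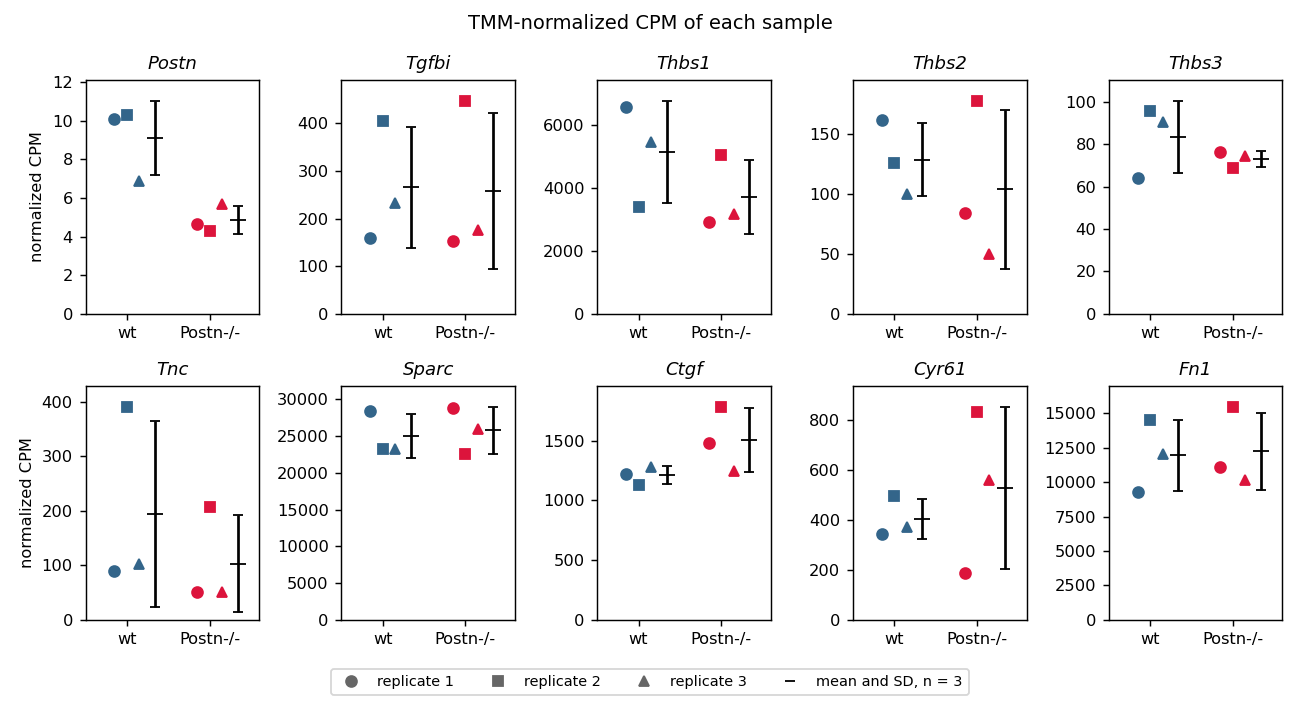
TMM-normalized CPM of each sample for the 10 genes, each panel with its own axis from 0, with a symbol per replicate number and the mean and SD (n = 3) beside each genotype. *Postn* is the only gene whose genotypes do not overlap, and replicate 2 is highest in both genotypes for *Tgfbi*, *Tnc*, *Cyr61* and *Fn1*.

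None of the 9 relatives rose in *Postn*-/- chondrocytes by the test used. With a threshold of 0.05 on the adjusted p, the quasi-likelihood test of edgeR called 0 of the 10 genes in either direction, against 0.0138% of all tested genes (0.00688% higher and 0.00688% lower). At an unadjusted p of at most 0.05 edgeR called 0 of the 10 as higher, against a background of 3.95%, and 1 as lower, *Postn*, against 2.35%, which makes 6.3% in either direction. DESeq2's Wald test and voomWithQualityWeights likewise called 0 of the 9 relatives at an unadjusted p of at most 0.05, and voomWithQualityWeights with surrogate variables called *Thbs3* and *Tnc* as lower. Of all tested genes, DESeq2 called 3.3% higher and 2.7% lower, voomWithQualityWeights 5.42% and 3.78%, and the fit with surrogate variables 7.2% and 5.75%. The genotypes did not overlap for 1 of the 10 genes, *Postn*, which was lower. Among all tested genes they did not overlap for 13.6%, 7.03% higher and 6.57% lower. The log2 fold changes of the 9 relatives had a median of −0.04, 4 above and 5 below 0, and that of all tested genes was 0.0042.

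**Figure D3:**
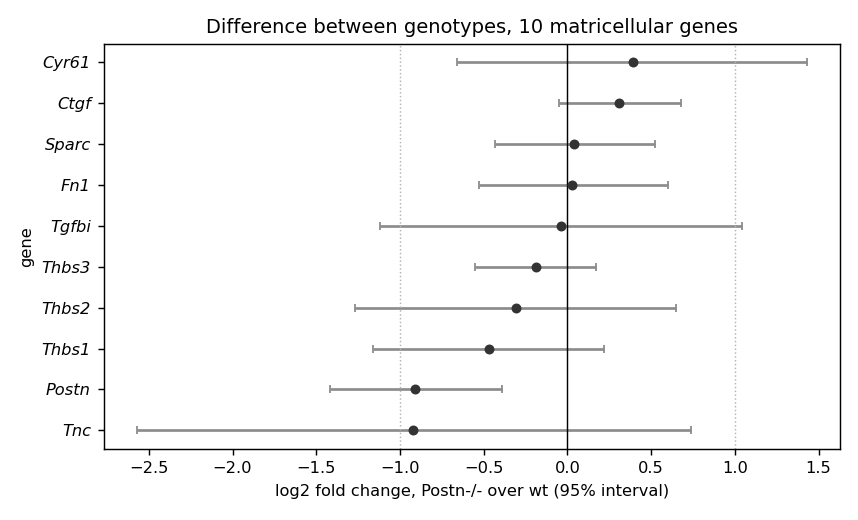
Log2 fold change, *Postn*-/- over *wt*, of each of the 10 genes with its 95% interval from edgeR's quasi-likelihood fit; dotted lines mark a log2 fold change of 1 and −1. The interval of *Postn* lies below 0, and those of the 9 relatives include 0.

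*Tgfbi*, the closest relative of *Postn* by domain structure, had a fitted difference near 0 with a wide interval, and it varied widely within genotypes. The gene spans 56609603 to 56639339 of chromosome 13 (plus strand). *Tgfbi* was at 152, 447 and 175 CPM in *Postn*-/- replicates 1, 2 and 3 against 158, 405 and 233 CPM in the *wt* replicates. Replicate 2 stood highest in each genotype and the genotypes overlapped. The fitted log2 fold change was −0.04 (standard error 0.47, 95% interval −1.12 to 1.04, edgeR quasi-likelihood unadjusted p = 0.931, Benjamini-Hochberg adjusted p = 0.988), so the interval still allows a fold change of 0.460 to 2.05. With a sample left out the log2 fold change ran from −0.70 without *Postn*-/- replicate 2 to 0.40 without *wt* replicate 2, and it was above 0 in 3 of 6 cases.

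The thrombospondins are multimeric glycoproteins that bind calcium, collagens and cell-surface receptors. *Thbs1*, whose product can release TGF-β from its latent form and binds CD47 and CD36, spans 118111876 to 118127133 of chromosome 2. *Thbs1* was at 2913, 5045 and 3153 CPM in *Postn*-/- against 6563, 3376 and 5450 CPM in *wt*. In *Thbs1*, *Postn*-/- replicate 2 was above *wt* replicate 2, while the other *Postn*-/- samples were below all *wt* samples. On the log2 scale the fitted difference was −0.47 (standard error 0.30, 95% interval −1.16 to 0.22, edgeR quasi-likelihood unadjusted p = 0.156, Benjamini-Hochberg adjusted p = 0.730). Without *Postn*-/- replicate 2 it was −0.76 and without *wt* replicate 2 −0.70 (unadjusted p = 0.0330 and 0.0369), and without *wt* replicate 1 it was −0.25.

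*Thbs2* encodes a thrombospondin that lacks this TGF-β-releasing activity and takes part in collagen fibril assembly (chromosome 17, 14665500 to 14694262, minus strand). It was at 84.5, 178 and 49.8 CPM in *Postn*-/- against 162, 126 and 100 CPM in *wt*. In *Postn*-/- lay both the highest and the lowest value. The fitted log2 fold change was −0.31 (standard error 0.41, 95% interval −1.27 to 0.65, edgeR unadjusted p = 0.475), and it was 0.02 without *Postn*-/- replicate 3 and −0.94 without *Postn*-/- replicate 2. Like *Thbs1* and *Thbs2*, the 10 cycling cell markers were in sum highest in *Postn*-/- replicate 2 and *wt* replicate 1, with summed levels of 421, 803 and 344 CPM in *Postn*-/- and 1288, 557 and 633 CPM in *wt*. All 10 had a fitted value below 0, as did 49.2% of all tested genes, and 1 of them was lower at an unadjusted p of at most 0.05, against 2.35% of all tested genes. Their part in the values of the thrombospondins was not tested.

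*Thbs3* encodes a thrombospondin made by chondrocytes and bone cells (chromosome 3, 89215180 to 89226837). *Thbs3* was at 76.1, 68.7 and 74.3 CPM in *Postn*-/- against 64.0, 95.7 and 90.4 CPM in *wt*. Values of *Postn*-/- were close together and *wt* replicate 1 was below all of them. The log2 fold change was −0.19 (standard error 0.16, 95% interval −0.55 to 0.17, edgeR unadjusted p = 0.259), so a rise of more than 1.13-fold lay outside the interval. Without *wt* replicate 1 it was −0.35 (unadjusted p = 0.0118). Other genes share 3.54% of the 50-base words of its transcripts, and an exon of *Mtx1* overlaps it on the other strand.

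*Tnc* encodes tenascin-C, a large glycoprotein of embryonic, healing and loaded connective tissue (chromosome 4, 63959785 to 64047015, minus strand). *Tnc* was at 51.0, 206 and 51.5 CPM in *Postn*-/- against 89.5, 390 and 102 CPM in *wt*. Replicate 2 was far above the others in both genotypes, and *Postn*-/- replicate 2 was above *wt* replicates 1 and 3, so the genotypes overlapped. The fitted log2 fold change was −0.92 (standard error 0.72, 95% interval −2.57 to 0.74, edgeR quasi-likelihood unadjusted p = 0.237, Benjamini-Hochberg adjusted p = 0.762). Of the 9 relatives this was the fitted value farthest from 0, with the widest interval. Without *wt* replicate 2 it was 0.10 and without *Postn*-/- replicate 2 −1.92. Set side by side by replicate number, *Postn*-/- was at 0.570, 0.527 and 0.503 times *wt* for numbers 1, 2 and 3, although same-numbered samples are different mice.

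*Sparc* encodes a calcium- and collagen-binding protein of mineralizing and remodelling tissue (chromosome 11, 55394500 to 55420080, minus strand). *Sparc* was at 28841, 22502 and 25974 CPM in *Postn*-/- against 28454, 23197 and 23302 CPM in *wt*. Replicate 1 was highest and replicate 2 lowest in each genotype. On the log2 scale the fitted difference was 0.04 (standard error 0.21, 95% interval −0.43 to 0.52, edgeR unadjusted p = 0.834), and it was −0.04 without *Postn*-/- replicate 1 and −0.01 without *wt* replicate 2 or 3. A rise of more than 1.44-fold lay outside the interval.

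*Ctgf*, a CCN gene needed for growth plate development, had the smallest unadjusted p of the 9 relatives. The gene spans 24595442 to 24598683 of chromosome 10 (plus strand). *Ctgf* was at 1483, 1779 and 1246 CPM in *Postn*-/- against 1220, 1128 and 1281 CPM in *wt*. *Postn*-/- replicates 1 and 2 were above all *wt* samples, and *Postn*-/- replicate 3 lay between the *wt* samples. The fitted log2 fold change was 0.31 (standard error 0.16, 95% interval −0.05 to 0.68, edgeR quasi-likelihood unadjusted p = 0.0842, Benjamini-Hochberg adjusted p = 0.717), and it was 0.17 without *Postn*-/- replicate 2 and 0.43 without *Postn*-/- replicate 3 (unadjusted p = 0.0314). Of its 50-base words 17.2% occur in transcripts of other genes, among them *Gm15270*, whose exons overlap it on the other strand, and whether the counting used strand is not stated.

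*Cyr61*, the CCN gene known as an immediate early response gene, spans 145646971 to 145649985 of chromosome 3 (minus strand). *Cyr61* was at 188, 833 and 561 CPM in *Postn*-/- against 344, 496 and 371 CPM in *wt*. The *Postn*-/- samples spanned the *wt* samples on both sides. The log2 fold change was 0.39 (standard error 0.45, 95% interval −0.66 to 1.43, edgeR unadjusted p = 0.419). Without *Postn*-/- replicate 2 it was −0.11, so its direction depended on a single sample. Without *Postn*-/- replicate 1 it was 0.79 (edgeR unadjusted p = 0.0112, adjusted p = 0.772).

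*Fn1*, whose product forms the fibrils to which periostin and tenascin-C attach, spans 71585520 to 71653200 of chromosome 1 (minus strand). *Fn1* was at 11115, 15455 and 10135 CPM in *Postn*-/- against 9315, 14510 and 12022 CPM in *wt*. Replicate 2 was highest in each genotype and the genotypes overlapped. On the log2 scale the fitted difference was 0.03 (standard error 0.24, 95% interval −0.53 to 0.60, edgeR unadjusted p = 0.893), and it was −0.17 without *Postn*-/- replicate 2 and −0.12 without *wt* replicate 1. It was also below 0 with voomWithQualityWeights, at −0.07 and, with surrogate variables, at −0.02.

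For 7 of the 9 relatives the upper bound of the interval was below a doubling, as it was for 85.1% of all tested genes. The exceptions were *Tgfbi*, with an upper bound of 1.04 on the log2 scale, and *Cyr61*, with 1.43. For 3 of the 9, *Thbs1*, *Thbs3* and *Sparc*, the upper bound was below a 1.5-fold rise, against 61.4% of all tested genes. Summed over the 9 relatives, the level was 10332, 10221 and 10100 RPKM in *Postn*-/- replicates 1, 2 and 3 and 10802, 9424 and 9718 RPKM in the *wt* replicates. The *Postn*-/- mean of 10218 ± 116 was 1.02 times the *wt* mean of 9981 ± 726, and every *Postn*-/- sample lay within the range of the *wt* samples. *Sparc* made up most of this sum. Without *Sparc* the sum was 2587 ± 763 RPKM in *Postn*-/- and 2630 ± 96.2 RPKM in *wt* (ratio 0.983), with *Postn*-/- replicate 2 at 3462 and replicates 1 and 3 at 2061 and 2237.

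Within a genotype, 4 of the relatives varied widely between mice. The SD of log2 CPM within genotypes was 1.17 for *Tnc*, 0.81 for *Cyr61*, 0.77 for *Tgfbi* and 0.70 for *Thbs2*. Among tested genes of like expression, the median SD was 0.14 for the genes compared with *Tnc* and with *Tgfbi* and *Thbs2*, and 0.17 for those compared with *Cyr61*. *Tnc* lay at the 99.4th percentile of 987 such genes, *Tgfbi* at the 98.6th of 562, *Cyr61* at the 98.5th of 263 and *Thbs2* at the 98.0th of 1171. *Postn* had an SD of 0.27, close to the median of 0.26 over 1634 genes of like expression.

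A shared pattern over the samples was seen after the values were examined. Replicate 2 was the highest sample of both genotypes for 4 of the 10 genes (40.0%), *Tgfbi*, *Tnc*, *Cyr61* and *Fn1*, as it was for 15.6% of all tested genes. In lists described further on, the share was 40% of 10 collagens and collagen-processing genes and 30.4% of 23 TGF-β, YAP and SRF genes. It was 16.7% of 24 other matricellular genes and 13.3% of 15 receptors. The summed osteoblast and osteoclast markers were highest in replicate 2 of both genotypes as well, at 1328, 1692 and 1185 CPM in *Postn*-/- and 1048, 2784 and 1495 CPM in *wt*. This peak of the sum was carried by *Alpl*, at 729, 1191 and 573 CPM in *Postn*-/- and 465, 2294 and 967 CPM in *wt*. *Ctsk* was instead lowest in replicate 2 of both genotypes, at 435, 321 and 411 CPM and 390, 294 and 373 CPM. Of the 8 markers 6 were tested, 2 of these were highest in replicate 2 of both genotypes, and *Ocstamp* and *Oscar* were too low to test. Their part in the pattern of the 4 genes was not tested. The chondrocyte markers were not highest in replicate 2 of both genotypes for any of the 10, and *Col2a1* is given with them in the closing observations.

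The genes whose pattern over the 6 samples was most like that of *Postn* were *Tnfrsf14*, *Snora57*, *Gm14322*, *Itga10* and *Cntnap3*. Likeness was the root mean square difference between gene-centred log2 CPM, which was 0.174, 0.180, 0.185, 0.188 and 0.198 for these genes, against a median of 0.549 over all tested genes. *Itga10*, the collagen-binding integrin chain typical of chondrocytes, was at 16.0, 14.9 and 16.7 CPM in *Postn*-/- against 26.0, 27.4 and 24.8 CPM in *wt*. Its genotypes did not overlap, and it is located on chromosome 3 like *Postn* (96645584 to 96664519). The contactin-associated gene *Cntnap3* was at 3.78, 3.42 and 6.15 CPM in *Postn*-/- against 8.77, 8.55 and 7.76 CPM in *wt*. Since these genes were chosen for this pattern, no test is given. None of the 9 relatives was among them. So short a list leaves out almost every tested gene, so this absence does not show how like or unlike *Postn* the relatives were.

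Of 26 genes outside the 10, matricellular or related and called other matricellular genes here, 24 were tested, and *Spock1* and *Tnr* were too low. The list includes *Stab1* and *Stab2*, which encode scavenger receptors rather than secreted matricellular proteins. At an adjusted p of at most 0.05 edgeR called 0 of the 24, and it called 1 higher and 0 lower at an unadjusted p of at most 0.05, while DESeq2's Wald test called 3 higher at that level, *Stab1*, *Sparcl1* and *Smoc1*. At that level 5 were higher without the filter on low counts, 5 with voomWithQualityWeights, and 6 higher and 1 lower once surrogate variables were added. Among all genes the share called higher was 3.95% in edgeR, with 2.35% lower, 3.3% with DESeq2, 3.03% without the filter and 5.42% with voomWithQualityWeights. With surrogate variables 7.2% of all genes were higher and 5.75% lower. Their median log2 fold change was 0.05, with 13 above and 11 below 0. The gene that passed the unadjusted level, *Stab1*, encodes a scavenger receptor with fasciclin domains like those of periostin. *Stab1* was at 2.29, 2.48 and 3.38 CPM in *Postn*-/- against 1.11, 1.04 and 1.73 CPM in *wt*, without overlap. Its log2 fold change was 1.07 (standard error 0.30, 95% interval 0.39 to 1.76, edgeR quasi-likelihood unadjusted p = 0.00705, Benjamini-Hochberg adjusted p = 0.717). Its paralog *Stab2*, at 4.02, 3.01 and 4.53 CPM in *Postn*-/- and 2.88, 2.40 and 2.83 CPM in *wt*, also did not overlap, with a log2 fold change of 0.51 (95% interval −0.03 to 1.05, unadjusted p = 0.0620). These 2 of the 24 were higher without overlap, near the 7.03% of all tested genes. *Stab1* and *Stab2* are otherwise known from macrophages and sinusoidal endothelium. The summed endothelial markers were 10.1, 10.9 and 14.3 CPM in *Postn*-/- and 8.42, 8.14 and 12.2 CPM in *wt*, the blood and macrophage markers 49.7, 28.6 and 39.1 CPM and 28.7, 18.9 and 32.9 CPM, and their part in these 2 genes was not tested.

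**Figure D4:**
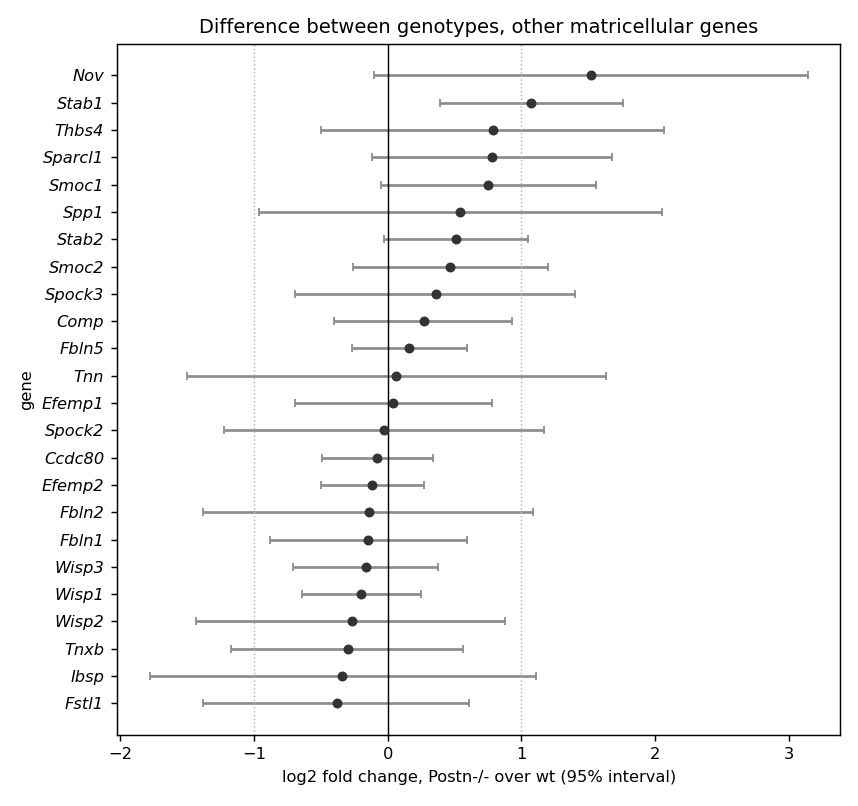
Log2 fold change, *Postn*-/- over *wt*, of the 24 tested genes among 26 other matricellular genes, with 95% intervals from edgeR's quasi-likelihood fit. *Stab1* at 1.07 is the only one whose interval does not include 0, and *Nov* at 1.52 has an interval from −0.10 to 3.14.

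Among the families of the members, *Comp*, the thrombospondin typical of cartilage, was at 7869, 6042 and 5444 CPM in *Postn*-/- against 3427, 7355 and 5311 CPM in *wt* (log2 fold change 0.27, 95% interval −0.40 to 0.93), and *Thbs4* had a log2 fold change of 0.79 (−0.50 to 2.07), which was 0.06 without *Postn*-/- replicate 1 and 1.27 without *wt* replicate 1. Of the tenascins, *Tnxb* had −0.30 (−1.17 to 0.56) and *Tnn* 0.06 (−1.50 to 1.63), and the value of *Tnn* was below 0 with voomWithQualityWeights and under the replicate block. Of the CCN genes, *Nov* had 1.52 (−0.10 to 3.14), with *Postn*-/- replicate 2 at 24.7 CPM and the other samples between 1.76 and 8.67 CPM. Its value was 0.59 without *Postn*-/- replicate 2 and 2.34 without *wt* replicate 1 (edgeR unadjusted p = 0.0149). With surrogate variables it was 1.66 (voomWithQualityWeights unadjusted p = 0.000102, adjusted p = 0.131). The CCN genes *Wisp1*, *Wisp2* and *Wisp3* had −0.20, −0.27 and −0.16, each with an interval that included 0. Of the tested relatives of *Sparc*, *Sparcl1* had 0.78 (−0.12 to 1.68), *Smoc1* 0.75 (−0.05 to 1.56), *Smoc2* 0.47 with an interval that included 0, *Spock2* −0.03, *Spock3* 0.36 and *Fstl1* −0.38, and none of them had genotypes apart. *Spock1*, too low to test, was at 0.683, 0.773 and 1.24 CPM in *Postn*-/- and 0.461, 0.362 and 0.575 CPM in *wt*, without overlap. With a sample left out, values ran from 0.45 to 1.13 for *Sparcl1* and 0.50 to 1.17 for *Smoc1*. They ran from 0.19 to 0.68 for *Smoc2* and 0.03 to 0.56 for *Comp*.

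The mineral-binding sialoproteins *Spp1* and *Ibsp* had log2 fold changes of 0.54 (95% interval −0.96 to 2.05) and −0.34 (−1.78 to 1.11), with *Spp1* at 9107 CPM in *Postn*-/- replicate 2 and 5250 CPM in *wt* replicate 2, the highest value of each genotype. The fibulins assemble on elastic fibres and basement membranes. *Fbln1* had −0.15, *Fbln2* −0.14, *Fbln5* 0.16, *Efemp1* 0.04 and *Efemp2* −0.12, and every interval included 0, that of *Fbln2* running from −1.38 to 1.09. *Fbln2* was at 0.90 (edgeR unadjusted p = 0.00188) without *wt* replicate 1, and the directions of *Fbln2* and *Efemp1* turned under 5 of 15 alternatives each. *Ccdc80* had −0.08 (−0.49 to 0.34).

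The receptors and upstream genes of these proteins were examined with the same fit, and 0 of the genes of each list reached an adjusted p of 0.05 or less in edgeR or under any of the alternatives, DESeq2 and voomWithQualityWeights among them. Of 15 receptors, mostly integrin chains, 1 passed at an unadjusted p of at most 0.05, the periostin-binding chain *Itgb5*, which was higher, at 40.3, 48.0 and 47.1 CPM in *Postn*-/- and 38.2, 39.4 and 30.5 CPM in *wt* (log2 fold change 0.33, 95% interval 0.01 to 0.64, edgeR unadjusted p = 0.0429). The median of the receptors was 0.23, with 11 of 15 above 0, against 0.0042 and 50.8% for all tested genes. With a like fold change *Itgb5* missed an unadjusted p of 0.05 with DESeq2's Wald test (0.31, unadjusted p = 0.0666). In edgeR it missed it with DESeq2 size factors (0.31, unadjusted p = 0.0507), without the filter (0.30, 0.0766) and under the replicate block (0.33, 0.0508). With voomWithQualityWeights it passed (0.43, unadjusted p = 0.0117). At the unadjusted level DESeq2's Wald test called 0 receptors and voomWithQualityWeights with surrogate variables 5. The same fits called 3.3% of all tested genes higher and 2.7% lower with DESeq2, and 7.2% and 5.75% with surrogate variables. *Itgb5* and the shared chain *Itgb1* were the receptors whose *Postn*-/- samples were all above the *wt* samples, 2 of 15 against 7.03% of all tested genes. Of 23 genes of TGF-β signalling and of YAP and SRF activity, 2 were higher and 1 lower at an unadjusted p of at most 0.05, against 3.95% and 2.35% of all tested genes. The TGF-β receptor gene *Tgfbr2* was at 80.8, 71.5 and 63.8 CPM in *Postn*-/- and 58.2, 57.8 and 61.1 CPM in *wt* (log2 fold change 0.29, edgeR unadjusted p = 0.0358). With a like fold change of 0.28 *Tgfbr2* missed this level with DESeq2 (unadjusted p = 0.0611), and it also missed it without the filter (0.26, unadjusted p = 0.0871), with voomWithQualityWeights (0.23, unadjusted p = 0.0705) and under the replicate block (0.28, unadjusted p = 0.0501). The YAP target *Amotl2* had 0.34 (unadjusted p = 0.0236), and *Tead1*, a DNA-binding partner of YAP, had −0.31 (unadjusted p = 0.0372; 0.0597 without the filter). The list's median was 0.16.

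Of 10 collagens and collagen-processing genes that act with these proteins, 2 were higher at an unadjusted p of at most 0.05 and 0 lower, against 3.95% and 2.35% of all tested genes. *Col6a1*, a chain of pericellular collagen, was at 2394, 2349 and 2130 CPM in *Postn*-/- and 1128, 1988 and 1512 CPM in *wt* (log2 fold change 0.57, 95% interval 0.09 to 1.05, edgeR unadjusted p = 0.0261). *Plod2*, a lysyl hydroxylase, was at 1265, 1003 and 1184 CPM in *Postn*-/- and 718, 909 and 901 CPM in *wt* (log2 fold change 0.45, 95% interval 0.10 to 0.80, unadjusted p = 0.0175). For both genes all *Postn*-/- samples were above the *wt* samples, as for 7.03% of all tested genes. Without *wt* replicate 1 neither passed the unadjusted level. With a sample left out the log2 fold change ran from 0.39 to 0.80 for *Col6a1* and from 0.35 to 0.54 for *Plod2*. *Bmp1*, which encodes a procollagen protease, and *Lox*, whose product periostin is known to help that protease activate, had −0.20 (95% interval −0.91 to 0.51) and 0.57 (−0.56 to 1.71). The list's median was 0.09.

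**Figure D5:**
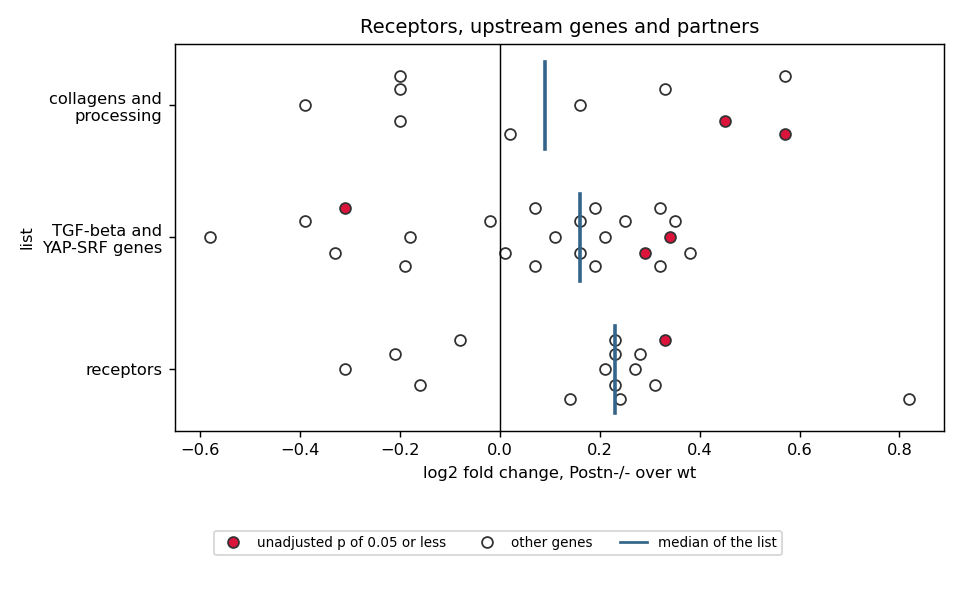
Log2 fold change, *Postn*-/- over *wt*, of each tested gene of 3 lists, with filled circles for an unadjusted p of 0.05 or less in edgeR's test and a blue bar at each list's median. The medians are 0.23 for 15 receptors, 0.16 for 23 TGF-β, YAP and SRF genes and 0.09 for 10 collagens and processing genes.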

How the data were processed

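RNA from the 6 samples was sequenced as single-end reads. STAR 2.0.4b was used by the authors for alignment to GRCm38 (Ensembl release 76), and they deposited counts of uniquely aligned reads per gene from featureCounts 1.4.5; strand use is not stated. The submitters' notes name mm9, but 97.6% of matched genes had GRCm38 positions, which are used. The deposited CPM divides counts by each sample's sum, and the deposited RPKM further divides by exon length, which was checked. Symbols came from GENCODE M21 (40340 of 41388 identifiers, 97.5%). Promoter windows came from RefSeq GRCm38.p6, and protein sequences were not used here.

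In R 4.3.3, 355 rRNA genes were left out, 14533 genes exceeded 1 CPM in 2 or more samples, and edgeR 4.0.16 with TMM factors (0.970 to 1.025) and no covariate was fitted. Standard errors were the size of the log2 fold change divided by the root of F, and intervals are 95%. Common biological variation was 0.208 (coefficient). Chi-square per degree of freedom was 17.7 to 52.6 over the 15 pairs of samples, so each counted as 1 sample. Each sample is a mouse.

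Named genes were the 10 genes, the tested other matricellular genes, genes at or below an unadjusted p of 0.05 in the receptor, upstream and collagen lists and the 5 genes most like *Postn*; these 5 were given as values and not refitted under the alternatives. *Itgb1*, *Bmp1*, *Lox*, *Col2a1* and other single markers were named after their values were seen. Members and lists, including markers of chondrocytes, fibroblasts, endothelium, blood, bone, smooth muscle and cycling cells, were chosen with earlier results of these data known. Alternatives were DESeq2 1.42.0 (Wald test, size factors), upper quartile scaling, no or a stricter filter, voomWithQualityWeights of limma 3.58.1, alone and with 2 surrogate variables (sva 3.50.0), robust dispersions, a block for the replicate number, and each sample left out.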

Additional observations from a re-analysis of the deposited data

How the results depend on the processing

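With a threshold of 0.05 on the adjusted p, 0 of the 10 genes were called under each of the 15 alternatives. Over 40 named genes (the 10, the 24 tested other matricellular genes and the 6 named from the receptor, upstream and collagen lists), 554 of 596 values kept their direction and their side of this threshold and 42 turned direction, none of them a call. The number of the 10 genes lower by the unadjusted p (0.05 or less), 1 in the report, was 3 without the filter (*Postn*, *Thbs1*, *Tnc*), 3 with surrogate variables and 2 under the replicate block, and 1 to 4 with a sample left out. The shares of all genes lower in these fits were 2.21%, 5.75%, 3.21% and 0.849% to 3.81%. With a sample left out the number higher was 0 to 1, against 2.13% to 5.26% of all genes, and the number without overlap 2 to 4, against 19.2% to 27.1%. Whether replicate numbers pair the samples was not settled. After centring on each genotype, same-numbered samples correlated at 0.0824, 0.155 and 0.143, and different-numbered samples were not compared with these. Under the replicate block *Tnc* was at −0.91 (unadjusted p = 9.22e-05, adjusted p = 0.447 from edgeR). Of the 24 other matricellular genes, 3 were higher under the block at an unadjusted p of at most 0.05, against 4.97% of all genes. These were *Stab1*, *Thbs4* (0.72, edgeR unadjusted p = 0.00555) and *Sparcl1* (0.85, edgeR unadjusted p = 0.00157). Direction turned for *Fn1* with voomWithQualityWeights (−0.07; −0.02 with surrogate variables), and in the same order and then under the block for *Tnn* (−0.59, −0.63, −0.37), *Fbln2* (0.55, 0.36, 0.22) and *Efemp1* (−0.23, −0.01, −0.03). The cause was not tested. With a sample left out, values ranged from −0.70 to 0.40 for *Tgfbi*, −0.94 to 0.02 for *Thbs2*, −1.92 to 0.10 for *Tnc*, −0.04 to 0.15 for *Sparc*, −0.11 to 0.79 for *Cyr61*, −0.17 to 0.20 for *Fn1*, −0.59 to 0.11 for *Tnxb*, −1.13 to 0.53 for *Tnn*, −0.63 to 0.31 for *Wisp2*, −0.32 to 0.41 for *Spock2*, −0.70 to 0.34 for *Fstl1*, −0.50 to 1.17 for *Spp1*, −0.79 to 0.59 for *Ibsp*, −0.45 to 0.16 for *Fbln1*, −0.49 to 0.90 for *Fbln2*, −0.40 to 0.28 for *Efemp1*, −0.24 to 0.07 for *Efemp2* and −0.19 to 0.05 for *Ccdc80*. Over all genes, calls by the adjusted p were 2 in the report, 11 with DESeq2, 9 without the filter and 0 with more than 1 CPM in all 6 samples. With 3 mice per genotype, changes within the intervals could not be detected, and *Postn* and *Stab1* were also counted with few reads.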

Other observations

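The marker lists for the cell types that such cultures could hold were measured with the same fit as *Postn* and its relatives, and in edgeR's quasi-likelihood test 0 of their genes had an adjusted p of at most 0.05. Of 10 chondrocyte markers 7 had a log2 fold change, *Postn*-/- over *wt*, above 0, as did 50.8% of all tested genes, with a median of 0.20. *Col2a1*, the collagen gene that defines cartilage, was at 15767, 13696 and 18081 normalized CPM in *Postn*-/- and at 8271, 11867 and 9567 CPM in *wt*. Its genotypes did not overlap, and its log2 fold change was 0.68 (95% interval 0.19 to 1.17, unadjusted p = 0.0125 from the edgeR test). It was the only 1 of the 10 at an unadjusted p of at most 0.05, against 3.95% higher among all tested genes. It was also the only 1 without overlap, against 7.03% higher without overlap. *Matn1* (−0.27), *Col11a1* (−0.14) and *Hapln1* (−0.03) were below 0. The summed chondrocyte markers were 35743, 25916 and 35995 CPM in *Postn*-/- and 22239, 30815 and 26444 CPM in *wt*, so *Postn*-/- replicate 2 was below *wt* replicates 2 and 3. *Col2a1* was the largest single part of this sum in every sample.

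The fibroblast and perichondrial markers summed to 2865, 2609 and 1588 CPM in *Postn*-/- and to 2125, 2177 and 2226 CPM in *wt*. The *Postn*-/- samples spanned the *wt* samples on both sides, and 9 of the 10 genes were tested, with a median of 0.23. The smooth muscle markers summed to 70.8, 109 and 133 CPM in *Postn*-/- and 86.9, 90.5 and 185 CPM in *wt*, and 1 of 6, *Rgs5*, was higher at an unadjusted p of 0.0347 (log2 fold change 1.24), against 3.95% of all tested genes. The median of the 6 was 0.17, with 3 of them below 0. The 5 tested endothelial markers and the 4 tested blood and macrophage markers had medians of 0.24 and 0.47, each gene above 0, against 50.8% of all tested genes, and none at an unadjusted p of at most 0.05. The osteoblast and osteoclast markers had a median of 0.05 over 6 tested genes and the cycling cell markers one of −0.63 over 10. Whether these levels bear on the values of the matricellular genes was not tested.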
